A study of Caenorhabditis elegans with 4 samples.

Results

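Chromosome II held 2143 of the 11448 regions (18.7%) listed as bound by tagged MEP-1 in Caenorhabditis elegans embryos. The members are all rows of the combined peak list that lie on chromosome II, whatever their width, and each was placed by its midpoint. The embryos came from hermaphrodites of strain OP70, grown at 20 °C. OP70 is a single transgenic strain made by bombardment, with the ed3 allele of unc119 and the insertion wgIs70. The insertion carries mep-1 joined to TY1, EGFP and FLAG tags together with a copy of unc119, and no change of the worm's own mep-1 gene is listed. ChIP-seq, which sequences the DNA that comes down with an antibody, was done on chromatin fixed in 2% formaldehyde with an affinity-purified polyclonal goat antibody to the green fluorescent protein (GFP) part of the tag. The 4 libraries were 2 ChIP and 2 input DNA libraries, both kinds from this 1 strain and stage. They were merged into 1 list with no value for any library, so the spread between replicates cannot be given, the depth of each library is unknown, and no comparison here has a test. Intervals are 95% exact intervals and cover counting error only.

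MEP-1 is a zinc-finger protein first known for its role in the switch of the germ line from sperm to oocytes. In embryos it works with the chromatin remodeller LET-418 (Mi-2) and the histone deacetylase HDA-1, and loss of the complex lets somatic cells switch on genes that belong to the germ line. ChIP of such a protein reports contact with chromatin, whether through its own zinc fingers or through partners. Worm autosomes have a gene-dense central domain where crossing-over is rare, flanked by arms that recombine more and hold more repeats and more silent chromatin. Positions are on genome build WormBase WS180. An annotation or genome of that build was not used here, so no gene is named and no sequence is shown for these peaks.

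Each listed peak carries a q-value, the p-value of the ChIP against the control reads corrected for the number of regions tested. The ChIP and scaled control reads behind it were recovered as whole numbers from this value for 2142 of the 2143 peaks. The typical peak on II was 200 bp wide (median, with quartiles of 97.5 and 341.5 bp). Its median ChIP count was 43.5 reads (quartiles 29 and 76), over a median control of 11 (quartiles 8 and 16). ChIP exceeded the control by a median ratio of 4.08, with quartiles of 3.25 and 5.76 and a range from 1.68 to 28.7. Over the other 5 chromosomes together the median width was 247 bp, but III had the same median as II (200 bp) and V was close (204 bp), while I, X and IV had 260, 268 and 291 bp. On each single chromosome the median ratio ran from 3.04 on IV to 4.38 on III, so II stood second highest, and its median control of 11 reads equalled that of III and was below those of the others (13 to 21). Since the control enters the ratio and the q-value, the part of the control in that order was not tested. The peaks together covered 543.5 kb of II, 3.56% of a span of 15.3 Mb that ends with the last peak.

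Reads grew with width, but enrichment did not keep growing. The 173 peaks under 20 bp held 19 to 27 ChIP reads, with a median of 23 over 6 control reads. Peaks from 100 bp to under 200 bp numbered 501, the largest class, with a median of 35 ChIP reads and a ratio of 3.42. The 308 peaks from 300 bp to under 400 bp reached a median of 82 ChIP reads over 15 control reads and a median ratio of 5.90 (quartiles 4.23 and 7.89). The 28 peaks of 1000 bp or more held a median of 249.5 ChIP reads over 56 control reads, with a median ratio of 4.62. In the broadest regions a high ChIP total thus went with a high control total, and the highest typical ratio belonged to peaks of 300 bp to under 400 bp. Across the 2143 peaks Spearman's rho was 0.87 between width and −log10 q, and over the 2142 with reads it was 0.36 between width and ratio. These coefficients describe peaks of the same pooled libraries, and width, reads and q share the same read pile-up.

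**Figure D1:**
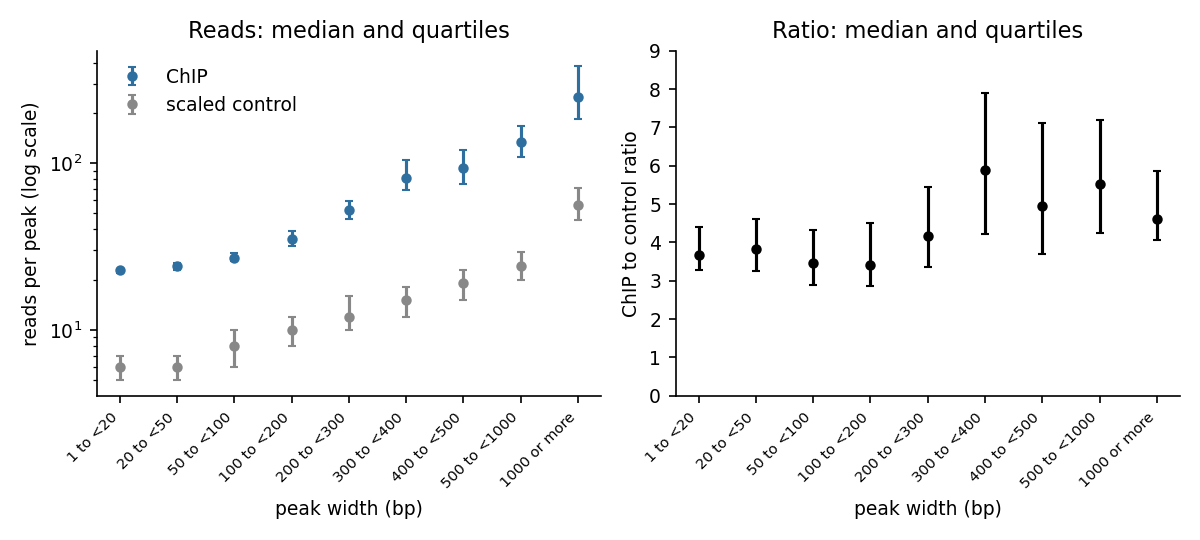
Left, ChIP and scaled control reads per peak (log scale) by peak width in bp on chromosome II; right, the ratio of ChIP to control. Points are medians and bars run from the lower to the upper quartile; the median ratio is 3.67 under 20 bp, 5.90 from 300 bp to under 400 bp and 4.62 from 1000 bp on.

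A few strong regions did not dominate the chromosome. The 10 peaks with the lowest q held 3.91% of the ChIP reads in peaks on II, and the best 214 by q held 29.2%. Among the 100 lowest q-values of the whole list, 16 belonged to II, close to its share of all listed peaks (18.7%). At the weak end, 340 peaks (15.9%, interval 14.3 to 17.5%) were narrower than 50 bp, with 19 to 29 ChIP reads each. The share of such narrow peaks was 15.1% on III and 14.3% on V, and 7.44 to 10.3% on I, IV and X.

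The middle of chromosome II carried the most peaks. The centre, the middle 0.5 of the span, ran from 3818437 to 11455308 and held 1202 peaks, or 157 per Mb (interval 149 to 167). The left arm, from 1 to 3818436, held 452 peaks, or 118 per Mb (interval 108 to 129.8). The right arm, from 11455309 to 15273745, held 489 peaks, or 128 per Mb (interval 117 to 139.9). Centre density was 1.28 times that of both arms together (123 per Mb), and the intervals of the arms overlapped each other but not that of the centre. These intervals treat peaks as independent and are too narrow for clumped peaks. The variance of counts per 100 kb bin was 4.11 times the mean in the left arm, 3.09 in the centre and 1.63 in the right arm. The lack of overlap therefore does not settle a difference. In covered length the order was the same: peaks took up 4.24% of the centre, 3.27% of the right arm and 2.48% of the left arm. Leaving out the 6 fullest bins of 100 kb, which all lay in the centre, brought the ratio of centre to arms from 1.28 to 1.17. Only the fullest bins of the centre were taken out and none of the arms, so this ratio could only fall.

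Along the chromosome the density stepped up and down near the zone borders. The 15 full bins of 1 Mb held 140 ± 21.3 peaks (SD between bins), from 104 in the first to 171 in the bin that starts at 5000001. The first 4 bins held 104, 117, 145 and 116 peaks. The next 8 bins, from 4000001 to 12000000, held 152, 171, 159, 162, 156, 154, 151 and 154 peaks, all above every other bin. The 3 full bins after 12000000 held 117, 124 and 119. The high plateau ran slightly past the right border of the centre as defined here. The number of peaks in a 100 kb bin said little about the next bin, with a Spearman's rho of 0.05 over 152 neighbouring pairs, so the plateau was made of mixed full and sparse bins.

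**Figure D2:**
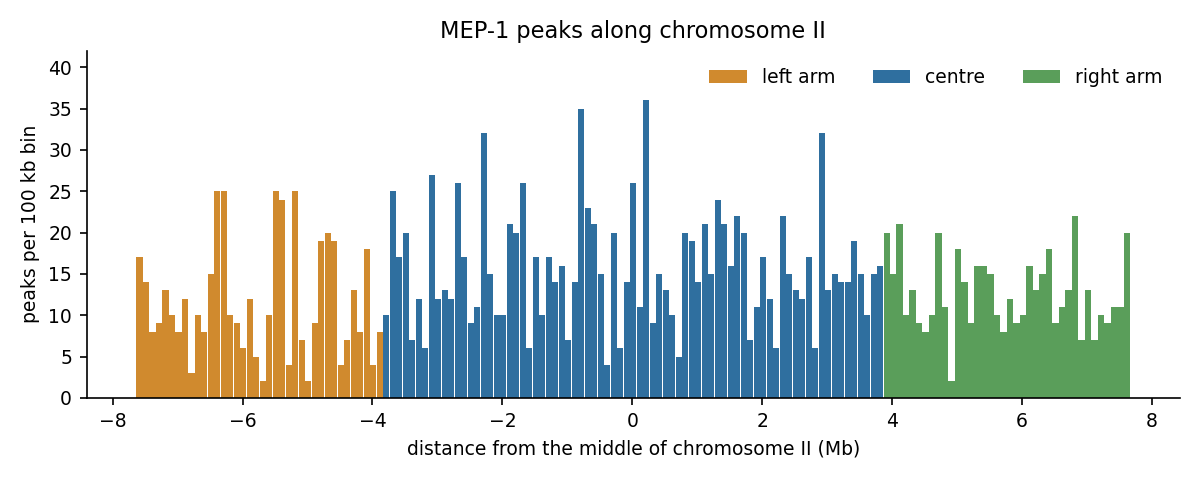
Number of MEP-1 peaks per 100 kb bin (vertical axis) against the distance of the bin from the middle of chromosome II in Mb (horizontal axis); colours mark left arm, centre and right arm. The 6 fullest bins, with 26 to 36 peaks, all lie in the centre, while bins of 2 peaks occur in both arms.

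Peaks of the centre were wider and held more reads than those of the left arm, but not a higher ratio. Median width was 213 bp in the centre, 200 bp in the right arm and 166 bp in the left arm. The median ChIP reads were 47.5, 43 and 35 and the median control reads 12, 11 and 8, in the same order. The median ratio was 3.86 in the centre, 4.27 in the right arm and 4.5 in the left arm, the reverse of the order in control reads. In peaks of like width, from 300 bp to under 400 bp, the ChIP medians lay close together at 82 in the centre (181 peaks), 85 in the right arm (73) and 79.5 in the left arm (54). The control medians in these peaks were 16, 14 and 12 reads and the median ratios 5.69, 6.15 and 6.42. The quartiles of the ratio overlapped widely, from 3.9 to 7.58 in the centre and from 4.94 to 8.41 in the left arm. In these peaks the medians of the zones lay closer in ChIP reads than in control reads. Width and ChIP reads share the same pile-up, so a match on width also makes the ChIP reads alike. This comparison therefore cannot tell what set the ratio, and the part of the control in the zone differences was not tested.

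The right arm had the largest share of strong peaks of the 3 zones. Of its 489 peaks, 68 (13.9%, interval 11.0 to 17.3%) were among the best 214 of II by q, against 121 of 1202 in the centre (10.1%, interval 8.42 to 11.9%) and 25 of 452 in the left arm (5.53%, interval 3.61 to 8.06%). The intervals of the right arm and the centre overlapped, and both lay above that of the left arm. In the subset with 100 or more ChIP reads, a ratio of at least 10 was reached by 32 of 91 in the right arm (35.2%, interval 25.4 to 45.9%), 35 of 215 in the centre (16.3%, interval 11.6 to 21.9%) and 12 of 48 in the left arm (25%, interval 13.6 to 39.6%). With the control of arm peaks raised to the level of the centre, the shares were 23.1% in the right arm (21 of 91, interval 14.9 to 33.1%) and 10.4% in the left arm (5 of 48, interval 3.47 to 22.7%). The interval of the right arm then overlapped that of the centre, as that of the left arm already had, and the order of left arm and centre turned round. Peaks of at least 1000 bp numbered 18 in the centre, 9 in the right arm and 1 in the left arm.

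**Figure D3:**
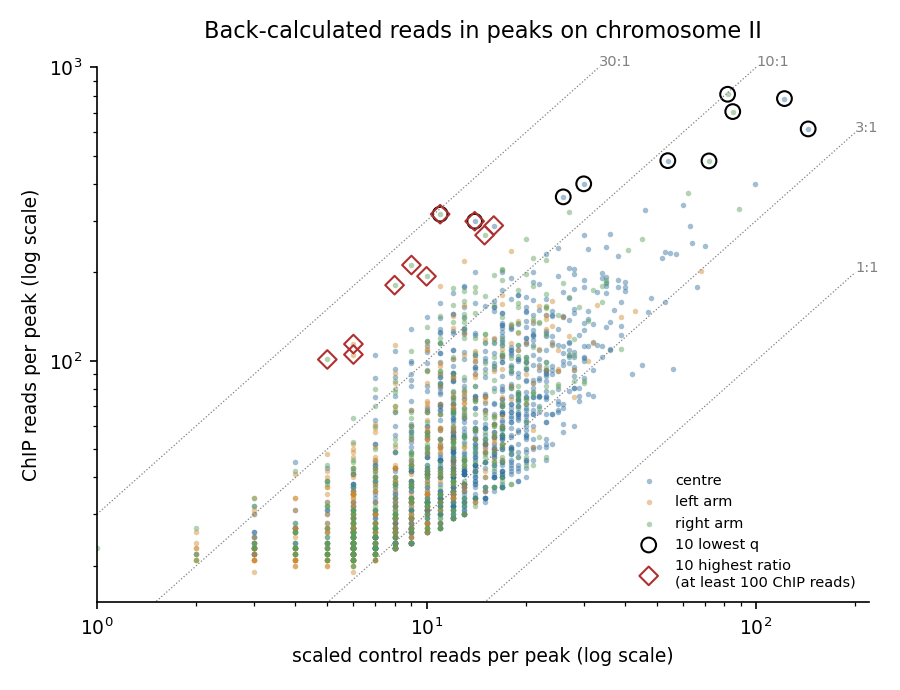
ChIP reads against scaled control reads per peak on chromosome II, both on log scales, coloured by zone; dotted lines mark fixed ratios. Circles mark the 10 peaks with the lowest q, with 299 to 810 ChIP reads, and diamonds the 10 with the highest ratio among peaks of at least 100 ChIP reads, with ratios from 17.5 to 28.7.

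The lowest q-values on II belonged to broad regions with many reads and to narrow ones with few control reads. The peak from 14249097 to 14251971 in the right arm had the lowest q (1.00e-147), with 810 ChIP reads (interval 755 to 868) over 82 control reads in 2875 bp, a ratio of 9.88. In the same arm, the peak from 11633684 to 11636247 had 707 ChIP reads (interval 656 to 761) over 85 control reads. In the centre, the peak from 9059562 to 9062621 had 783 ChIP reads (interval 729 to 840) over 122 control reads. These 3 broad regions held more ChIP reads than any other peak of II and ratios from 6.42 to 9.88.

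The narrowest of the 10 peaks with the lowest q were 432 bp, 407 bp and 404 bp wide. The peak from 11759188 to 11759619 held 316 ChIP reads (interval 282 to 353) over 11 control reads, a ratio of 28.7, the highest on II. The peak from 10563301 to 10563707 held 362 ChIP reads over 26 control reads, and the peak from 8561165 to 8561568 held 299 over 14, a ratio of 21.4. The remaining 4 were the peaks from 5660607 to 5662432 (481 ChIP reads over 54), from 5844515 to 5845229 (401 over 30), from 11748507 to 11750233 (480 over 72) and from 6826660 to 6830197 (617 over 144). Of the 10, 6 lay in the centre, 4 in the right arm and 0 in the left arm. These zones held 56.1%, 22.8% and 21.1% of all peaks on II. The peaks at 11748507 and 11759188 lie in the same 100 kb bin of the right arm, a broad region with a ratio of 6.67 and a narrow one with a ratio of 28.7, with 2 other peaks between them.

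Of peaks that held 100 ChIP reads or more, the 10 with the highest ratio fell mostly in the right arm, which held 6 of them, while the centre and the left arm held 2 each. Of all 354 peaks with that many ChIP reads, 91 lay in the right arm, 215 in the centre and 48 in the left arm. After the peak at 11759188, the highest were 13888207 to 13888695 with 212 ChIP reads over 9 (ratio 23.6) and 13575457 to 13575861 with 181 over 8 (ratio 22.6). The same arm also held 12778334 to 12778646 with 101 over 5, 14561514 to 14561910 with 194 over 10 and 14804225 to 14804865 with 268 over 15. The left arm gave 2204120 to 2204464 with 114 over 6 and 2564961 to 2565265 with 105 over 6. The centre gave, beside the peak at 8561165, the region from 5543310 to 5543977 with 289 over 16. These 10 regions were 305 to 668 bp wide. Controls of 5 to 16 reads leave such ratios imprecise, and no interval is given because the control was scaled before the test.

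The left arm, which held 21.1% of the peaks on II, had no peak among the 10 lowest q-values. Its own lowest q belonged to 255118 to 255700, with 237 ChIP reads (interval 208 to 269) over 18 control reads, which was 106th in the whole list. It was followed by 1320395 to 1320898 with 219 over 13 and 410878 to 411251 with 180 over 11. All 3 were 374 to 583 bp wide, and their ratios of 13.2, 16.8 and 16.4 were well above the median of the arm (4.5). The 3 left-arm peaks had fewer ChIP reads than each of the 10 with the lowest q on II.

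The densest stretches of 100 kb lay in the centre and differed in make-up. The 153 bins of II held 14 ± 6.67 peaks (SD between bins), with a median of 13 and a range from 2 to 36. The 6 fullest held 188 peaks, 8.77% of the peaks on 3.93% of the length. The median width of their peaks was 217.5 bp and the median ratio 3.84, against 200 bp and 4.11 in the other bins, which include both arms. In these 6 bins the median control was 13 reads, against 11 elsewhere. Over the centre as a whole the medians were 213 bp, a ratio of 3.86 and 12 control reads, close to those of the 6 bins.

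The fullest bin, 7800001 to 7900000, held 36 peaks with 23 to 184 ChIP reads and ratios from 2.4 to 6.36. Near its start lay a chain of 12 peaks between 7806108 and 7817785, in which the peaks at 7809046 and 7810151 held 178 and 184 ChIP reads. A second chain of 6 peaks, with 30 to 78 ChIP reads, ran from 7884901 to 7889548, and a run of 4 followed from 7891815 to 7895410. Between the first chain and these lay other peaks, such as 7857368 to 7857989 with 142 ChIP reads. No peak of this bin was among the 10 lowest q-values of II.

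The next bin, 6800001 to 6900000, held 35 peaks and was far less even. Peaks covered 16158 bp of it, the most of the 6, and their ChIP reads ran from 24 to 617. Its core was the broadest peak of the chromosome, 6826660 to 6830197, 3538 bp wide. Downstream followed the peaks at 6830912 (252 ChIP reads over 64), 6833553 (235 over 53), 6835521 (189 over 38), 6838311 (185 over 40) and 6842428 (400 over 99). Their ratios of 3.94 to 4.97 hardly varied although the ChIP reads varied from 185 to 617, the ratio of the broadest peak being 4.28. Around and between them lay small peaks, and the peaks of this bin under 100 bp wide held 24 to 33 ChIP reads each.

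The bins 5300001 to 5400000 and 10500001 to 10600000 held 32 peaks each. In the first, ChIP reads ran from 23 to 188. It held a chain of 6 peaks from 5326209 to 5331922 and a chain of 9 from 5333802 to 5341266. Outside these chains several separate narrow peaks were well enriched, among them 5346344 to 5346688 with 126 ChIP reads over 12 and 5373249 to 5373582 with 153 over 16. In the second, a chain of 18 peaks filled 10541902 to 10558992, and the peak at 10563301, among the 10 with the lowest q, lay downstream of it outside the chain, beside a peak of 26 ChIP reads at 10562192. The bin 4500001 to 4600000 held 27 peaks, 14 of them in a single chain, with ratios from 2.27 to 6.2. The bin 4900001 to 5000000 held 26 peaks with no such chain, and its widest peak was 551 bp. The centre bins starting at 5900001 and 7600001 also held 26 peaks each, so the last place among the 6 is shared.

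Peaks on II lay in chains more often in the left arm and centre than in the right arm. A chain is a run of peaks in which each midpoint lies within 2000 bp of the next. Of all peaks, 905 (42.2%) stood alone, 502 were in chains of 2, and 305 (14.2%, interval 12.8 to 15.8%) were in the 43 chains of at least 5 members. Chains of at least 5 held 18.8% of the left-arm peaks (85 of 452, interval 15.3 to 22.7%), 17.1% of those in the centre (205 of 1202, interval 15 to 19.3%) and 3.07% of those in the right arm (15 of 489, interval 1.73 to 5.01%). These intervals treat peaks as independent, but the members of a chain are counted together. The peaks came from 12 chains in the left arm, 28 in the centre and 3 in the right arm. The intervals are therefore too narrow. Of the 6 chains of at least 10 members, 5 lay in the centre, 1 in the left arm and 0 in the right arm. Among peaks of at least 200 bp only, chains of at least 5 held 9.98% of the centre peaks and none in either arm.

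Members of chains in the left arm were narrower than those in the centre, as were the peaks of these zones as a whole. In the left arm the members of chains of at least 5 were 151 bp wide in the median, with 33 ChIP reads over 8, and 55 of the 85 (64.7%) were under 200 bp. In the centre the medians were 253 bp and 54 ChIP reads over 15, and 73 of 205 (35.6%) were under 200 bp. Over all peaks, in chains or not, the medians were 166 bp and 35 ChIP reads over 8 in the left arm. For all peaks of the centre they were 213 bp and 47.5 ChIP reads over 12. The 2 zones thus differed in the same direction without regard to chains. Peaks filled a median of 37.0% of a chain's length in the centre (28 chains), 19.9% in the left arm (12 chains) and 22.8% in the right arm (3 chains of 5 members). Members of chains of 10 or more had a median width of 271 bp, and 27.4% were 500 bp or wider, against 200 bp and 8.73% for peaks that stood alone.

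The longest chain by midpoints, 10541902 to 10558992, joined 18 peaks over 17.1 kb and was 40.6% covered by peaks. Its 2 strongest members, at 10548590 (326 ChIP reads over 46) and 10551728 (233 over 55), lay inside the chain and not at its ends. The 2nd longest lay in the left arm, 17 peaks from 2181936 to 2198909, covered to 20.4%. Its members had 22 to 105 ChIP reads and a median ratio of 5.29, above the 3.58 of the chain at 10541902, with a median control of 7 against 16.5 reads. The 3rd, 4569904 to 4585828, had 14 peaks around the region at 4574039 (1817 bp, 232 ChIP reads over 57). Measured from edge to edge, the peaks around the broadest region of II became the longest chain, 24 peaks from 6821094 to 6848266 with 49.3% of the 27173 bp in peaks and 2673 ChIP reads in all. Spaces between its peaks ran from 213 to 1479 bp.

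**Figure D4:**
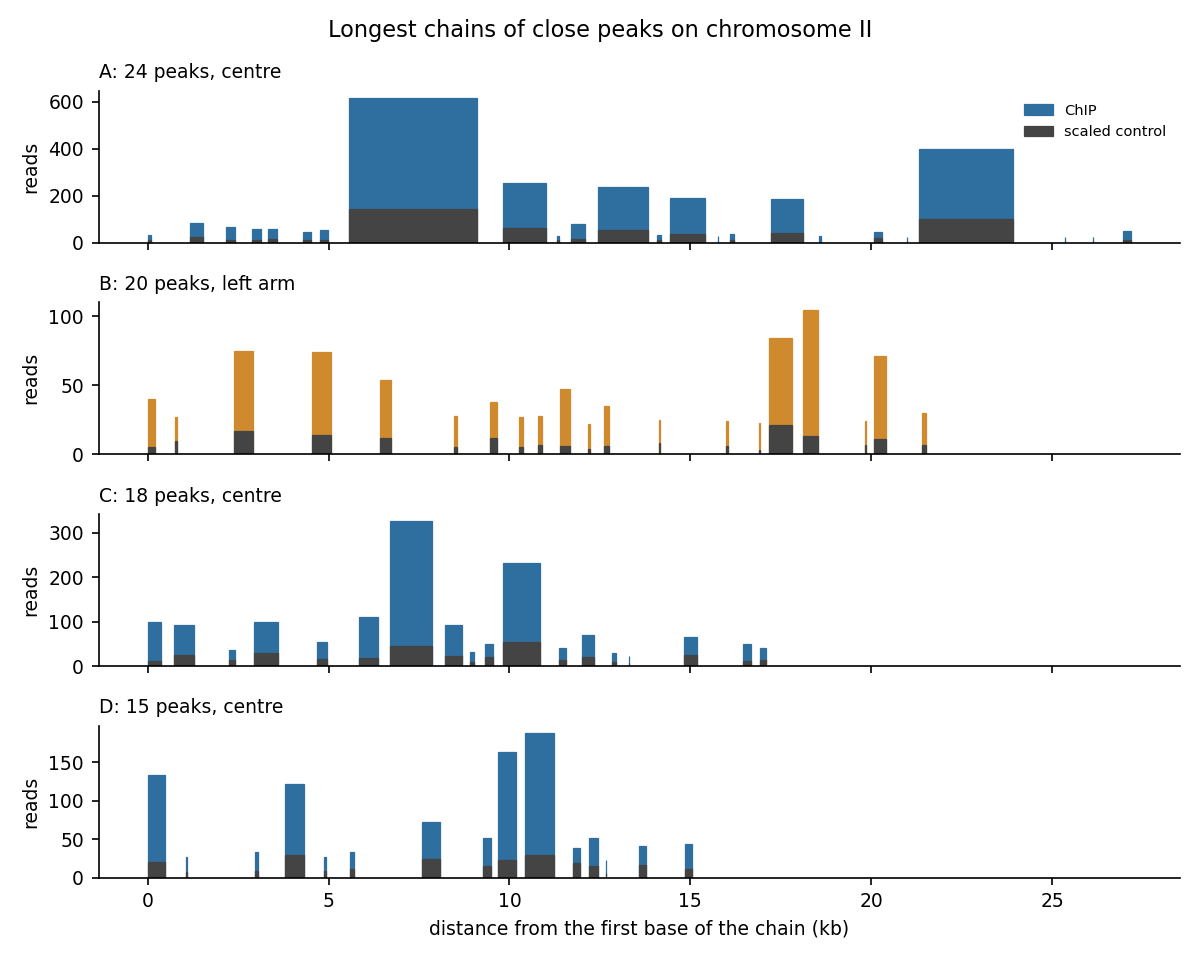
The 4 longest chains of peaks on chromosome II, joined from edge to edge at up to 2000 bp; each bar is a peak, drawn to its width at its distance in kb from the first base of the chain, with ChIP reads in the zone's colour (blue centre, orange left arm) and scaled control reads in dark grey. The chain of 24 peaks holds single regions of 617 and 400 ChIP reads, while in the left-arm chain of 20 no peak exceeds 105.

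The left arm alternated between crowded and nearly empty stretches. Its 38 bins of 100 kb held 2 to 25 peaks, with a variance 4.11 times the mean, whereas the 38 bins of the right arm held 2 to 22 with a variance 1.63 times the mean. In the 77 bins of the centre this figure was 3.09. In the 15 zones of the other chromosomes it ran from 1.28 to 5.19 with a median of 2.02, and 1 of them was above the left arm of II. With peaks of at least 200 bp the figure was 1.76 in the left arm, 2.28 in the centre and 1.41 in the right arm. The left arm thus no longer had the highest figure of the 3 zones. Fewer peaks per bin lower this measure by construction, and the part of that in the fall was not tested.

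Of the left-arm bins, those starting at 1200001, 1300001, 2100001 and 2400001 held 25 peaks each and that at 2200001 held 24. Their median widths were 143 to 174 bp and their median control 6 to 8 reads. The longest stretch of II without a peak, 116 kb from 2571021 to 2687140, began after the peak that follows the high-ratio region at 2564961. Next in length were 1531953 to 1640588 (108.6 kb), 1930834 to 2032438 (101.6 kb), 2343615 to 2431919 (88.3 kb) and 3129234 to 3209425 (80.2 kb). Of the 8 longest gaps on II, 7 lay in the left arm.

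Long gaps were rarer in the rest of the chromosome. Gaps over 50 kb numbered 12 in the left arm, 6 in the centre and 3 in the right arm, and took up 907 kb, 338 kb and 157 kb. The longest in the centre was 72.6 kb, from 5972493 to 6045060, and the longest in the right arm 54.9 kb. The median gap was shorter in the left arm (2515 bp) than in the centre (2800.5 bp) and the right arm (3874 bp), so the left arm had both the closest typical neighbours and the longest empty stretches. Over all 2142 gaps of II the median was 2933 bp, with quartiles of 968.5 and 8707 bp. How well reads map in the empty stretches was not examined.

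**Figure D5:**
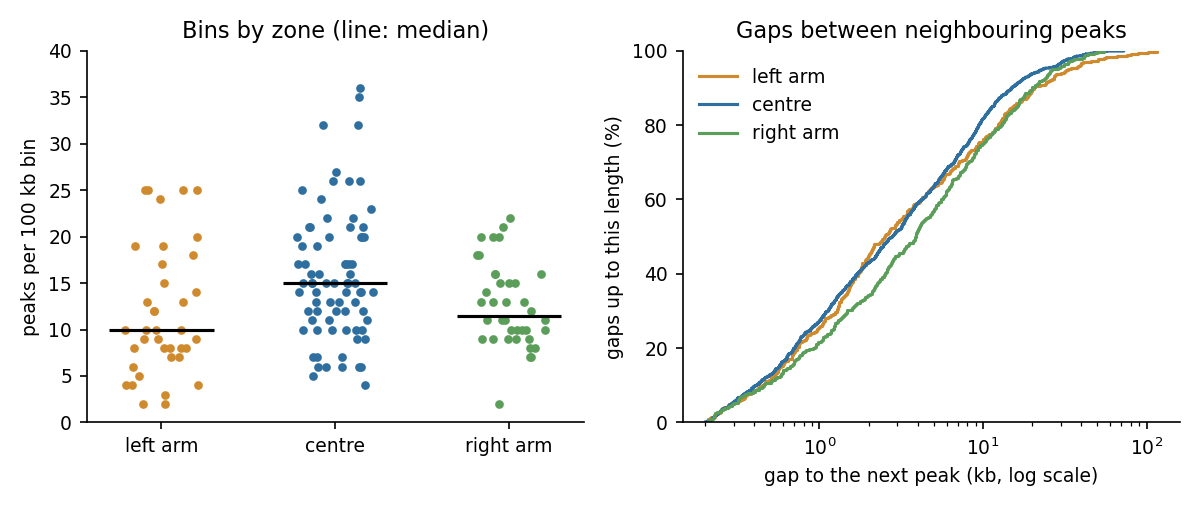
Left, peaks per 100 kb bin in the 3 zones of chromosome II, 1 point per bin, with the median as a line (10 in the left arm, 15 in the centre, 11.5 in the right arm); right, the percentage of gaps between neighbouring peaks up to a given length in kb (log scale). The left-arm curve reaches gaps of 116 kb, while the right arm has no gap over 54.9 kb.

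No 100 kb bin of II was empty. The sparsest bins were 1900001 to 2000000, 2600001 to 2700000 and 12500001 to 12600000 with 2 peaks each, followed by 800001 to 900000 with 3. Those starting at 2300001, 3100001, 3600001 and 7200001 held 4 each, the last of them in the centre. The bin at 1900001 held 26 and 42 ChIP reads in its peaks, over 6 and 12 control reads. The bin at 12500001, the only one of these in the right arm, held 29 and 38 ChIP reads over 6 and 10. A sparse bin could still hold a strong peak: 873053 to 873752 had 156 ChIP reads over 17 control reads, and 2342046 to 2342352, the last peak but 1 before the gap that starts at 2343615, had 84 over 8. The peak from 2695063 to 2695095 matched more than 1 pair of reads and is the only member on II without a read value.

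The first peak of II, 143 to 971, was 829 bp wide, with 202 ChIP reads (interval 175 to 232) over 68 control reads. Its ratio of 2.97 was below the lower quartile of the left arm (3.5), while its control was far above that arm's upper quartile of 12 reads. The second, 1436 to 1672, had 51 ChIP reads over 13. At the other end, the last peak, 15273620 to 15273745, had 32 ChIP reads over 10, and the one before it, 15271901 to 15271986, had 33 over 9. The last bin of 100 kb, of which 73.7 kb lay before the last peak end, held 20 peaks, among the fullest of the right arm.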

How the data were processed

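ChIP and input DNA of strain OP70 embryos were sequenced as 2 libraries each. Per the file headers, the authors deposited 1 combined list of regions called with PeakSeq on build WormBase WS180, and the deposited value of each region is a q-value (a corrected p-value). Not given in the sources used here are the aligner, the caller's version, the filters and how replicates were merged. Depth is unknown, since every column is of the pooled libraries.

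The 2143 rows on II were taken with start and end counted from 1. The last peak end (15273745) stands for the end of II. Zones are the middle 0.5 of that span and the arms. Bins of 100 kb and 1 Mb start at position 1. A last bin of 100 kb was to be left out if shorter than 0.5 of its size. The last bin of 1 Mb, which is not full, was left out of the mean and SD but kept for the narrowest peaks. Gaps run from a peak's end to the next start.

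Reads were back-calculated. With 15494 tested regions, q times rank over that number matched a one-sided binomial tail (probability 0.5, tolerance 1e-10 in natural log units) at all 80 sampled peaks, and the next best number matched 0. In the whole list 11440 of 11448 peaks matched 1 pair of reads, 7 matched more than 1, and 1 lay beyond the searched 2000 reads. The observed ChIP count was taken to be inside the tail. If it is outside, ChIP reads are lower by 1 and control reads higher by 1 at every peak. Control reads are after the caller's scaling. The step was tested on simulated data.

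No gene is named: the gene table at hand is of assembly WBcel235. Regions named are the 10 lowest q on II, the 3 lowest in each zone, the 10 highest ratios from 100 ChIP reads on, the 5 widest, the 6 fullest and 5 sparsest bins with peaks inside them, the 5 longest gaps, the 3 longest chains and the end peaks. Others were chosen after their values were seen. The members and these rules were chosen with earlier results of these data known. Python 3.11.15, pandas 2.3.3 and scipy 1.17.1 were used.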

Additional observations from a re-analysis of the deposited data

How the results depend on the processing

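Of 48 values recomputed under other settings, 30 stayed within their 95% binomial interval (zone ratios) or within 1.5 times (other values). The other 18 moved further, and 0 were labelled reversed. Only the ratio of centre to arms could receive that label, so it says nothing on the other values. Orders of zones that turned are given below. Not among the 48 are 2 comparisons by zone in which the left arm, above the centre as reported, fell below it: the share of ratios of at least 10 with the arm control raised (10.4% against 16.3%), and the share in chains of at least 5 at 1000 bp and, from 200 bp on, 0% against 9.98%. The ratio of centre to arms in peaks per Mb, 1.28, became 1.42 with the better 50% of all peaks by q, 1.51 with peaks of at least 200 bp, 1.48 in covered bases, 1.44 with peaks of at least 26 ChIP reads, 1.44 with the arm control raised and 1.17 without the 6 fullest bins. The ratio of left to right arm, 0.92, became 0.78 with peaks of at least 200 bp and 0.76 in covered bases. The fullest bin fell to 23 peaks both with the better 50% and with peaks of at least 200 bp. In the left arm the variance over the mean of bins, 4.11 as reported, was 2.35 with the better 50% and 1.76 from 200 bp on. In the centre it was 3.09, 2.36 and 2.28, so under both settings the left arm no longer lay above the centre. Peaks of at least 200 bp gave a longest gap of 184 kb, a median gap of 6427 bp and a median of 75 ChIP reads. Chains at 1000 bp held 2.15% of peaks in runs of at least 5, with 9 members in the longest, and chains at 3000 bp held 24.96%. By zone, left arm, centre and right arm, these shares were 1.33%, 3.33% and 0% at 1000 bp, 31.6%, 26.9% and 14.1% at 3000 bp, and 23.5%, 19.0% and 5.73% from edge to edge. Fewer peaks lengthen gaps and thin bins by construction; other causes were not tested. The minimum of 26 reads, the raised arm control (which left out 69 left-arm and 36 right-arm peaks), the removal of bins and the values by zone were chosen after seeing the data. No paired analysis was possible because all values are of pooled libraries, which also kept any replicate from being dropped. The raised arm control took out arm peaks only, and the removal of bins took out the fullest centre bins only. Each could therefore move the ratio of centre to arms in a single direction. Each setting could remove listed peaks but never add one that had failed the limit on q.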

Other observations

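The narrowest peaks of chromosome II held like counts within each Mb. The 62 peaks of at most 5 bp held 19 to 25 ChIP reads. Within a 1 Mb bin their counts differed by at most 3 reads, and by at most 1 in 14 of the 16 bins. They held 19 to 21 reads in the bin that starts at 2000001, 20 in that at 12000001 and 24 to 25 in that at 6000001. With peaks of at least 26 ChIP reads, a level above every one of these, the centre held 138.8 peaks per Mb, the right arm 103 and the left arm 89.0.

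Widths on II piled up at exactly 200 bp. This width occurred in 55 peaks, against 38 in all from 195 to 199 bp and 23 in all from 201 to 205 bp. The 55 peaks held 38 to 49 ChIP reads, with a median of 43. Below 200 bp no peak held more than 46 ChIP reads, and above 200 bp none held fewer than 41. In the whole list 253 peaks were 200 bp wide. The lowest ratio on II belonged to the peak from 8287530 to 8287930, with 94 ChIP reads over 56 control reads.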
